A study of Mus musculus with 8 samples.

Results

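Bidirectional promoters are short stretches of DNA from which a pair of genes is transcribed in opposite directions. Of the 6444 ASH2L sites in the list compiled by the authors, 388 (6.02%) were centred within 1 kb of the transcription start sites (TSSs) of a pair of divergent protein-coding genes and are called member sites below. A pair was divergent when the TSS of the minus-strand gene had the lower coordinate and the TSSs lay at most 1 kb apart, using the TSSs of all transcripts of protein-coding genes in GENCODE mouse release 21. The mm10 annotation held 1232 such pairs, made of 2410 genes, and 360 of the pairs had a member site. Where several TSS combinations qualified, the closest one was used for position and spacing.

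The cells were iMEFs, immortalised mouse embryo fibroblasts with floxed Ash2l alleles and a tamoxifen-activated Cre (Ash2l fl/fl Cre-ER). A lentiviral human ASH2L fused to the FKBP12F36V degradation tag and HA epitopes replaced the endogenous protein, whose gene had been inactivated in all groups. The lines were clones obtained by limiting dilution, so they stand for few founder cells. The paper states that its further work was mostly done with clone NG3, but the sources used here do not tie an ASH2L library to a clone. The 8 libraries were 4 ASH2L precipitates and 4 inputs, with 2 replicates each from untreated cells and from cells given dTAG-13, which sends the tagged protein to degradation, for 1 h. The list joined the sites of all samples and held only a chromosome, a start and an end per site. It therefore had no signal per sample, no depth and no replicate error, and the effect of dTAG was not analysed here. Fewer bound cells and less ASH2L per cell cannot be told apart in such a list. All intervals below are 95% intervals that cover counting error over sites, genes or pairs, which are not replicates of a condition, and they were not adjusted for the number of comparisons.

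ASH2L is shared by the KMT2 methyltransferase complexes, where it works with WDR5, RBBP5 and DPY30, and these enzymes place the H3K4me3 mark of active promoters. Many mammalian bidirectional promoters serve housekeeping genes, such as those of DNA repair, ribosomes and mitochondria. They usually lie in CpG islands, stretches rich in unmethylated CpG dinucleotides, and they often lack a TATA box and carry sites for ETS factors, NRF1 or NFY.

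To show what lies between divergent TSSs, the whole interval is printed for 3 pairs with a site that are textbook examples of shared promoters. Each run reads 5′ to 3′ on the plus strand of GRCm38.p6, between the TSS of the minus-strand gene and that of the plus-strand gene, and contains no annotated exon. Capitals mark matches to the motifs spelled out further below. The interval of Aimp2, which encodes a scaffold of the tRNA synthetase complex, and of the mismatch repair gene Pms2 (chr5:143909848-143909963, 116 bp) held an ETS match. That of Psmb1, a proteasome subunit gene, and of Tbp, which encodes the TATA-binding protein (chr17:15499752-15499887, 136 bp), held an SP/KLF match. That of Bop1, a ribosome biogenesis gene, and of Hsf1, the heat shock factor gene (chr15:76477278-76477421, 144 bp), held an NFY and a YY1 match.
Aimp2-Pms2: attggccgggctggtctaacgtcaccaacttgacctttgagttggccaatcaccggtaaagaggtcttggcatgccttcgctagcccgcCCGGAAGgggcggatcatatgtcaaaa
Psmb1-Tbp: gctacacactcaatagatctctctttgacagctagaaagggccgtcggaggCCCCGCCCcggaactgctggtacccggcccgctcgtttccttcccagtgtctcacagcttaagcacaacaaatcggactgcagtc
Bop1-Hsf1: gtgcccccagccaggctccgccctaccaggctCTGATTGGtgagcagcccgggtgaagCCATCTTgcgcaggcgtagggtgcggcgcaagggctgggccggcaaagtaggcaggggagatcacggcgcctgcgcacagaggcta

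A second set shows the ETS motif, which was more frequent at pairs with a site. It was chosen after the values were seen, and was drawn from the pairs with the 5 widest member sites and with the widest sites of the gene lists below, some of which are also textbook pairs. Shown are those whose exon-free interval of at most 300 bp held an ETS match. Capitals here mark ETS matches alone, and matches to other motifs are left in lower case. Of 40 pairs considered, 23 had such an exon-free interval, and 5 of these had a match. They pair the ribosomal protein gene Rps18 with Vps52, which acts in vesicle tethering (chr17:33955678-33955811), and the mitochondrial ribosomal protein gene Mrps18b with Ppp1r10, a phosphatase regulator gene (chr17:35916390-35916433). The others pair the resolvase gene Gen1 with Smc6 of the SMC5/6 complex (chr12:11265802-11265885), 1300017J02Rik with the replication checkpoint gene Topbp1 (chr9:103305083-103305214), and the HSP70 cochaperone gene St13 with the mitochondrial peptidase gene Xpnpep3 (chr15:81400078-81400137). In the intervals of Rps18-Vps52 and St13-Xpnpep3 the motif was inside an ASH2L site. In the other 3 it lay outside every site of the list.
Rps18-Vps52: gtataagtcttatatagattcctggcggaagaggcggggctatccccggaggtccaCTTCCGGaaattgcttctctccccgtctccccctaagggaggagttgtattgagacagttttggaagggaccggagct
Mrps18b-Ppp1r10: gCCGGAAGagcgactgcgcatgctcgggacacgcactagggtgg
Gen1-Smc6: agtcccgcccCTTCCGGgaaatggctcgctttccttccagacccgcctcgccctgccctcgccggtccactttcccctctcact
1300017J02Rik-Topbp1: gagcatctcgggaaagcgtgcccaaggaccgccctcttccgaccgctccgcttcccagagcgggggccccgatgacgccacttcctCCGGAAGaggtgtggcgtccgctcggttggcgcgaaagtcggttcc
St13-Xpnpep3: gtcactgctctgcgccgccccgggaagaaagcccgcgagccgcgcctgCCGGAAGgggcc

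The first comparison asked how often divergent coding pairs had an ASH2L site. Of the 1232 pairs, 360 (29.2%, Wilson interval 26.7 to 31.8%) had at least 1 member site. Of the pairs with a site, 320 had 1, 38 had 2 and 2 had 3, and 14 of the 388 member sites served 2 pairs at once. At 52 of the 872 pairs without a member site, 1 or both genes had an ASH2L site within 1 kb of any of their TSSs, though not of both TSSs of a divergent combination. Counted by gene, 762 of the 2410 genes in pairs (31.6%, interval 29.8 to 33.5%) had a site within 1 kb of any of their TSSs, against a background of 14.0% over all 21938 protein-coding genes. A site at a pair lies near both genes, so genes of a pair are not independent.

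Genes in pairs were near a site more often than genes with any other arrangement. A member site is counted for both genes of its pair, even when it lies inside only 1 of them. Genes in pairs therefore have more chances of a site than genes with no divergent neighbour. The part of this in the differences was not tested. Genes that were divergent only from a noncoding gene had a site in 22.9% of 1372 cases, which was 8.73 percentage points lower (interval of the difference 5.80 to 11.6). Genes with no divergent neighbour had one in 2002 of 18156 cases (11.03%), 20.6 points lower (interval 18.7 to 22.5). A CpG island lay within 1 kb of a TSS of 2357 of the 2410 genes in pairs. Among CpG island genes the shares were 32.3% in pairs, 24.3% opposite a noncoding gene and 15.9% without a divergent neighbour. A gene with many annotated TSSs has more chances to be near a site. Among genes with 1 annotated TSS, 51 of 248 in pairs (20.6%) and 169 of 4505 without a divergent neighbour (3.75%) had a site, a difference of 16.8 points (interval 12.2 to 22.3). The difference from the 17 of 129 single-TSS genes opposite a noncoding gene (13.2%) was 7.39 points, with an interval from -0.898 to 14.6 that includes 0.

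Pairs with a site were closer together and richer in CpGs. The median TSS spacing was 89.5 bp in pairs with a site (interval of the median 80 to 106) and 113.5 bp in pairs without (interval 104 to 126). The share of pairs with a site was 33.3% at a spacing of up to 100 bp, 30.1% above 100 and up to 200 bp and 17.4% above 200 and up to 300 bp. It was 25.8% from there to 500 bp and 20.8% from there to 1000 bp, so the shares above 200 bp did not fall further, and their intervals overlap. The windows around both TSSs overlap less at wide spacing, which leaves less room for a member site, and the part of this in the trend was not tested. In the 500 bp around the midpoint of each pair, the median ratio of observed to expected CpGs was 0.869 with a site (interval 0.855 to 0.885) and 0.784 without (interval 0.771 to 0.803). GC content differed less, with medians of 62.4% (interval 61.6 to 63.4%) and 61.8% (interval 60.8 to 62.4%). When pairs were divided into 4 equal groups by the CpG ratio, 12.3% of the 308 pairs in the lowest group had a site, followed by 27.9%, 35.1% and 41.6% in the highest group. The intervals of the lowest group (9.12 to 16.5%) and of the highest (36.2 to 47.1%) were far apart. A CpG island lay within 1 kb of 359 of the 360 pairs with a site and of 823 of the 872 pairs without. Among the 1182 island pairs, 30.4% had a site.

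**Figure D1:**
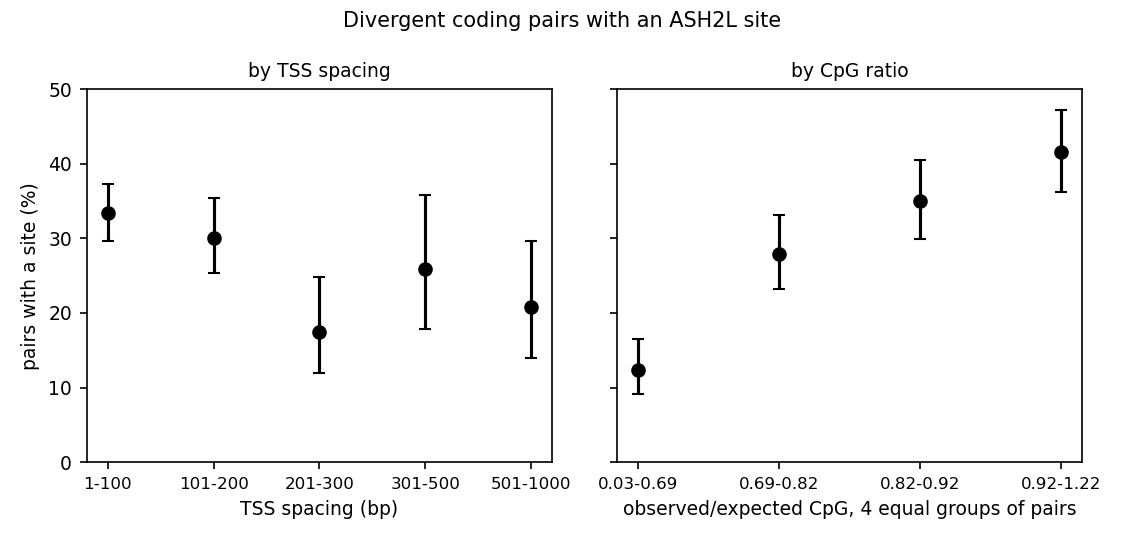
Share of divergent coding pairs with an ASH2L site (points, %) with Wilson 95% intervals (bars), by TSS spacing in bp (left) and by 4 equal groups of the observed to expected CpG ratio around the pair midpoint (right). The share is 33.3% at the closest spacing, with no steady fall above 200 bp, and rises over the groups of the CpG ratio from 12.3 to 41.6%.

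Of 19 textbook pairs that were divergent within the limit, 5 had a member site, which is near the 29.2% of all pairs, and 4 of them are described here. Hspd1 and Hspe1, which encode the mitochondrial chaperonin and its cofactor, shared a site of 473 bp (chr1:55087689-55088161) on the Hspd1 side. Aimp2 and Pms2 had a site on either side, of 227 bp (chr5:143909409-143909635) in the direction of Aimp2 and of 200 bp (chr5:143910137-143910336) in the direction of Pms2. The site at Psmb1 and Tbp spanned 400 bp (chr17:15499788-15500187) and reached into the printed interval from the Tbp side. The Bop1 and Hsf1 site spanned 336 bp (chr15:76477661-76477996) on the Hsf1 side. At 13 of the other 14 pairs, neither gene had a site within 1 kb of any TSS. These include the DNA damage genes Atm, Brca1, Fen1 and Trp53, the nucleotide synthesis genes Paics and Gart, and the replication gene Mcm4. At the collagen pair Col4a1 and Col4a2 a site of 489 bp (chr8:11313528-11314016) was centred 967 bp downstream of a Col4a2 TSS, but not within 1 kb of both TSSs of a divergent combination.

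The next question was where in the pair the sites lay. Of the 388 member sites, 51 (13.1%, interval 10.1 to 16.9%) were centred between the TSSs, 164 (42.3%) on the side of the minus-strand gene and 173 (44.6%) on the side of the plus-strand gene. The interval between the TSSs is short, and an even spread of centres over the allowed window would place 8.61% of them there. Per length examined, the density was 93.0 centres per 100 kb between the TSSs. It was 115 in the first 100 bp inside a gene and 121 at 100 to 200 bp, then fell to 64.0 at 200 to 300 bp and 33.6 at 400 to 500 bp. For the 337 sites outside, the median distance into the gene was 187.5 bp (quartiles 95 and 345 bp), and 231 of them (68.5%) lay within 300 bp. The median distance of a centre from the midpoint was 230.25 bp. By annotation, 200 centres (51.5%) were in untranslated exon sequence, 101 (26.0%) in introns, 58 (14.9%) in coding sequence and 29 (7.47%) outside genes.

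**Figure D2:**
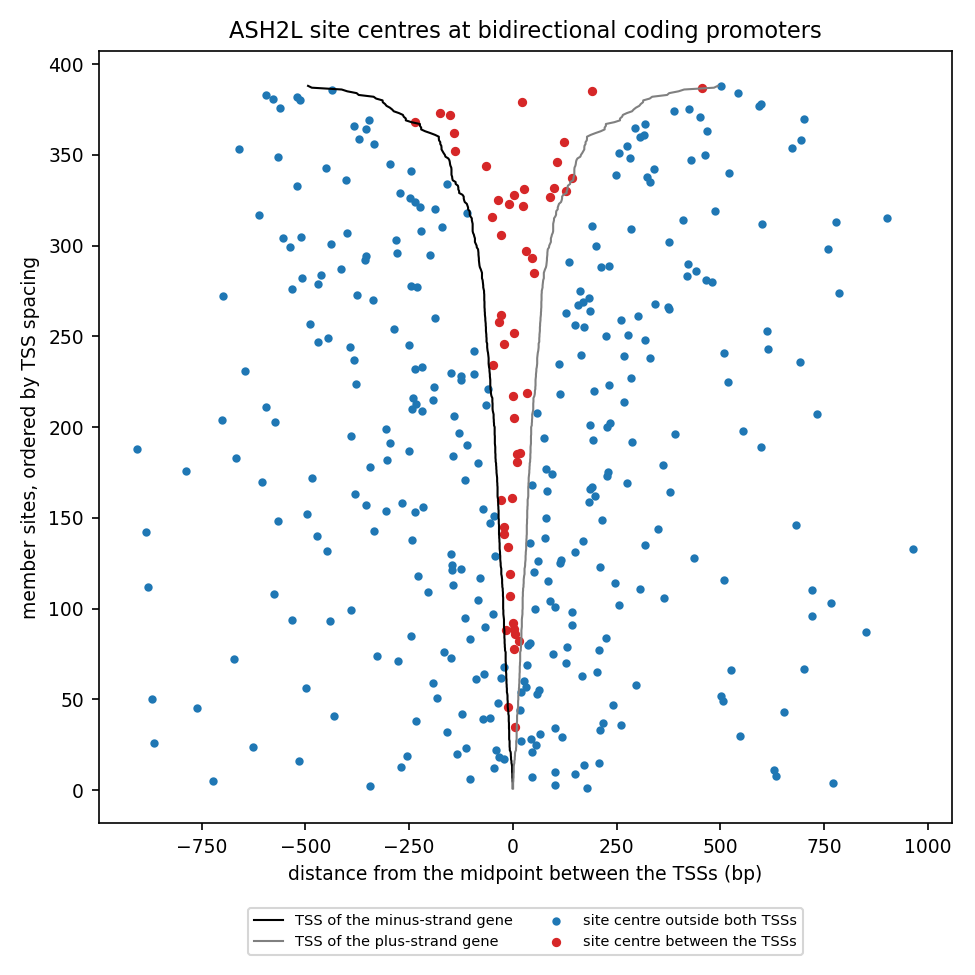
Centre of each of the 388 member sites relative to the midpoint between the TSSs (x, bp), with sites ordered by TSS spacing (y) and lines at both TSSs. Blue centres outside the TSSs (337) flank both lines at all spacings, and the 51 red centres lie between them.

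**Figure D3:**
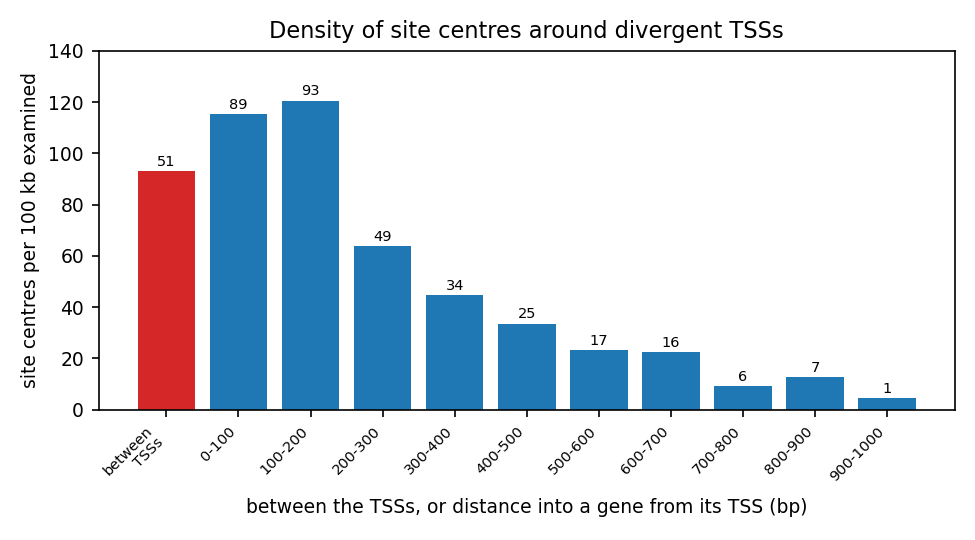
Site centres per 100 kb examined (bars, y from 0) between the TSSs and by distance into a gene from its TSS (x, bp), with the number of centres above each bar. The bars are tallest at 0 to 200 bp inside a gene (115 and 121) and fall to 4.67 at 900 to 1000 bp.

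How many TSSs a site covered follows in part from the spacing, since sites of this width cannot span distant TSSs. Over all member sites, 203 (52.3%) covered neither TSS of the pair, 75 (19.3%) covered 1 and 110 (28.4%) covered both. At a spacing of up to 100 bp, 90 of 216 sites covered both TSSs, in the next 100 bp 16 of 99, and above 200 and up to 300 bp 4 of 28. At wider spacing none of 25 sites up to 500 bp and none of 20 beyond did. The median width itself varied little with spacing, at 296, 291, 285, 275 and 314.5 bp from the closest to the widest group. The share of centres between the TSSs was 8.80% (interval 5.70 to 13.3%) at up to 100 bp, 11.1% in the next 100 bp and 35.7% (interval 20.7 to 54.2%) above 200 and up to 300 bp. The counts were 6 of 25 sites up to 500 bp and 5 of 20 beyond, so the share did not rise steadily with spacing. Of the 40 pairs with more than 1 site, 25 had sites on both sides of the midpoint and 22 had sites outside both TSSs on opposite sides. The gap between neighbouring sites of the 38 pairs with 2 sites had a median of 205 bp and ranged from 35 to 1038 bp.

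Where a pair had 1 site, it tended to lie on the CpG-richer side. Of the 320 pairs with 1 site, the 296 whose site served no other pair were used, and a site was given the side of the midpoint on which it was centred, also where it lay between the TSSs. It was on the plus-strand side in 152 of them (51.4%; two-sided exact binomial test, adjusted p = 0.684). CpGs were counted in the first 500 bp of each gene, from its TSS inwards, a stretch that can include the site itself. Of the 291 pairs with unequal counts, 202 (69.4%, interval 63.9 to 74.4%) had the site on the side with more CpGs (exact binomial test, adjusted p = 2.06e-10). The side with the site had a median of 38 CpGs (quartiles 28 and 52) and the other side 29 (quartiles 19 and 40), and the median difference within a pair was 11 (interval 8 to 13). The share grew with the size of the difference. The site was on the richer side in 56.5% of 46 pairs that differed by 1 to 5 CpGs, 61.4% of 44 at 6 to 10, 65.4% of 81 at 11 to 20 and 96 of 120 pairs (interval 72.0 to 86.2%) at 21 or more.

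Other sequence measures pointed to the same side, and gene measures did not pass the test. The CpG island reached farther past the TSS on the side of the site in 185 of 289 pairs (64.0%; exact binomial test, adjusted p = 7.65e-06), with medians of 577 bp and 446 bp. GC content was higher on that side in 183 of 295 pairs (62.0%; exact binomial test, adjusted p = 9.90e-05). These measures are not independent, since CpG count and island reach favoured the same side in 235 of 284 pairs (82.7%). The side of the longer first exon held the site in 161 of 295 pairs (54.6%; exact binomial test, adjusted p = 0.227). The longer gene had it in 137 of 296 (46.3%; exact binomial test, adjusted p = 0.311) and the gene with more transcripts in 140 of 272 (51.5%; exact binomial test, adjusted p = 0.684). The p-values were adjusted over these 7 tests by the Benjamini-Hochberg method, and they describe this list rather than repeated experiments. Base composition can also change how well fragments are amplified and sequenced, and its part in the result was not tested.

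**Figure D4:**
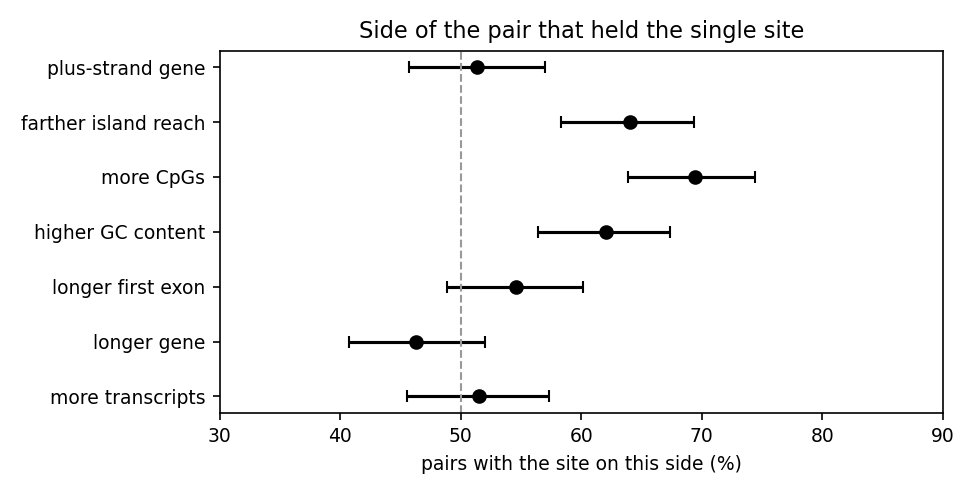
Share of pairs with 1 member site (points, %; bars are Wilson 95% intervals) in which the site was on the side named on the y axis, with a dashed line at 50%. Intervals for more CpGs (69.4%), farther island reach (64.0%) and higher GC content (62.0%) lie above the line, and the other 4 cross it.

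Member sites were of ordinary width for promoters but seldom broad. Their median width was 293.5 bp (interval of the median 277 to 310; quartiles 227 and 421 bp). It was 328 bp (interval 295 to 357) for 283 sites at coding promoters opposite a noncoding gene and 307 bp (interval 300 to 315) for 2497 coding promoter sites with no divergent gene, so the intervals overlap. Only 2 member sites (0.515%) were wider than 1 kb, against 14 of 283 (4.95%) and 82 of 2497 (3.28%) in these groups. The differences were -4.43 points (interval -7.64 to -2.04) and -2.77 points (interval -3.63 to -1.28). For widths over 500 bp the share was 13.7%, against 19.1% and 17.3%, and both intervals of the difference include 0. The minimum width of 200 bp was met by 9.28% of the member sites, 8.48% of sites opposite a noncoding gene and 9.33% of those with no divergent gene. A CpG island overlapped 382 member sites (98.5%), 97.9% of sites opposite a noncoding gene and 90.3% of those without a divergent gene. The GC content of the central 200 bp had a median of 65.5% in member sites, 70.0% opposite a noncoding gene and 68.0% without a divergent gene.

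The widest member site spanned 1274 bp (chr8:40511195-40512468) and covered both TSSs, 29 bp apart, of Cnot7, a deadenylase of the CCR4-NOT complex, and Vps37a of the ESCRT-I sorting complex. The next, of 1213 bp (chr10:115384797-115386009), was centred in coding sequence of Zfc3h1, which acts in nuclear RNA decay, opposite the THAP domain gene Thap2. A second site of 631 bp lay on the Thap2 side of the same pair. The site of 999 bp at Gm3625 and Itsn2, an endocytosis scaffold gene (chr12:4592830-4593828), that of 973 bp at the helicase gene Mcm9 and the histone chaperone gene Asf1a (chr10:53596838-53597810) and that of 899 bp at the splicing-related genes Cwc27 and Srek1ip1 (chr13:104816545-104817443) each covered both TSSs. Mcm9 and Asf1a had a second site of 200 bp on the Mcm9 side. At the closest spacing, Pex13, a peroxisomal import gene, and Pus10, a pseudouridine synthase gene, have TSSs 1 bp apart and had 3 sites, of 259, 463 and 612 bp. Bag4 and Lsm1, also 1 bp apart, had a site of 200 bp centred 178.5 bp inside Lsm1, an mRNA decay gene. Map4k5, a kinase gene, and Atl1 are 2 bp apart and had 2 sites on the Map4k5 side. The site of 230 bp was centred 721.5 bp inside Map4k5, and that of 238 bp was centred 102.5 bp inside it and covered both TSSs. At the other extreme, Btf3l4 and Txndc12 are 987 bp apart and their site of 292 bp was centred 7.5 bp inside Txndc12, which encodes a thioredoxin-like protein of the endoplasmic reticulum. The site of Alg3 and Eef1akmt4, 825 bp apart, was centred 23.5 bp inside Alg3, a gene of protein glycosylation. The repeated-site pairs also included the zinc finger genes Zfp668 and Zfp646, with 3 sites of 266, 409 and 200 bp.

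Sequence motifs were searched on both strands in 200 bp around the midpoint of each pair, around site centres and around the starts of coding genes outside pairs. The letters were GCGCATGC for NRF1, CCGGAAG for ETS factors, AAGATGG for YY1, CCAATCAG, CCAATCGG, CCAATGAG and CCAATGGG for NFY, and CCCCGCCC for SP/KLF factors. They were TGACGTCA for CRE, CACGTG for the E-box, TCTCGCGA for ZBTB33 or BANP and TATAAA for the TATA box. No form is contained in another motif's form, and matches of different motifs were counted separately where they overlapped in part. A match describes the letters in the window and not binding of a factor.

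Between midpoints of pairs with and without a site, ETS was the 1 of 9 motifs with an interval of the difference that leaves out 0. It was found at 110 of 360 midpoints of pairs with a site (30.6%) and at 173 of 872 without (19.8%), a difference of 10.7 points (interval 5.40 to 16.3). Among the starts of 19528 coding genes outside pairs, 8.20% had it. Read the other way, 38.9% of the 283 pairs with an ETS match had a site and 26.3% of the 949 without one. The share was 38.0% of 216 pairs with 1 match and 41.8% of 67 pairs with 2 or more. The difference of 12.5 points (interval 6.32 to 18.9) was 11.3 points in island pairs (interval 5.06 to 17.8). It was 11.96 points at a spacing of at most 100 bp (interval 3.73 to 20.3) and 9.69 points at wider spacing (interval 0.211 to 20.2). In pairs at or above the median CpG ratio it was 11.2 points (interval 2.50 to 19.8), and below the median 9.46 points (interval 1.25 to 18.8). Around site centres the motif was in 86 of 388 member sites (22.2%) and in 330 of 2780 other coding promoter sites (11.9%), a difference of 10.3 points (interval 6.25 to 14.8). In the same comparison of site centres the E-box was 2.10 points higher in member sites (interval 0.169 to 4.83) and the ZBTB33 or BANP motif 0.821 points higher (interval 0.0132 to 2.52), and the intervals of the other 6 motifs include 0. Over the whole width, 113 member sites (29.1%) held an ETS match, 80 had one between the TSSs of the pair, and 46 had both.

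Several motifs were more frequent at the midpoints of pairs with a site than at member site centres. NFY was at 10.8% of midpoints of pairs with a site and 12.2% of those without, a difference of -1.32 points (interval -4.97 to 2.83), but at 5 of 388 member site centres (1.29%). The difference between midpoints and site centres was 9.54 points (interval 6.27 to 13.3). It was 8.39 points for ETS (interval 2.08 to 14.7), 7.95 points for SP/KLF (interval 2.59 to 13.3) and 3.39 points for NRF1 (interval 1.20 to 6.04), and the intervals of the other 5 motifs include 0. These intervals treat midpoints and site centres as independent, although they come from the same pairs and some of their windows overlap. An NFY match lay between the TSSs at 41 member sites and inside the site at 10. NRF1 was likewise at 4.17% of midpoints with a site, 5.50% without, and 0.773% of member site centres. SP/KLF was at 20.8% of midpoints with a site and 25.6% without (difference -4.74 points, interval -9.64 to 0.545). In island pairs only, that difference was -6.24 points (interval -11.2 to -0.891). YY1 was at 7.22 and 6.31% of midpoints with and without a site, and between these midpoints the intervals of the difference for YY1, CRE, the E-box, ZBTB33 or BANP and TATA all included 0. TATAAA was at 2.78% of midpoints with a site and 3.33% without, against 8.71% of starts of coding genes outside pairs. TCTCGCGA was at 3.33 and 4.13%, against 0.896% outside pairs.

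**Figure D5:**
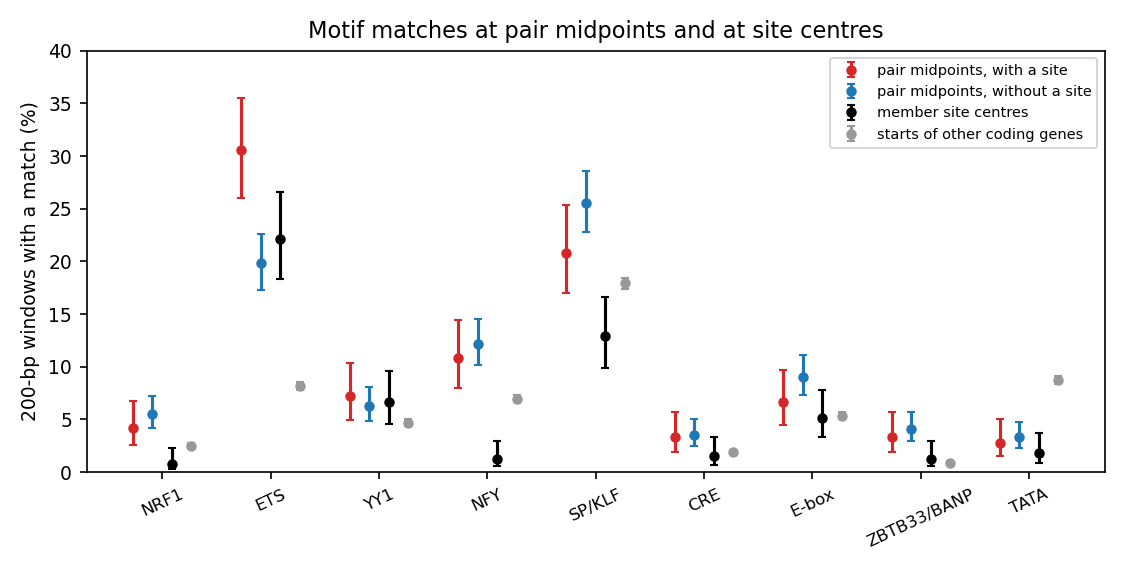
Share of 200-bp windows with a match to each motif (y, %, with Wilson 95% intervals) at midpoints of pairs with (red) and without (blue) a site, at member site centres (black) and at starts of coding genes outside pairs (grey). ETS separates red (30.6%) from blue (19.8%), and NFY falls from 10.8% at red midpoints to 1.29% at member site centres.

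Genes of 10 lists were then counted in pairs and outside pairs. Over all coding genes the share with a site was 19.8 points higher in pairs (interval 17.9 to 21.7). In these shares a site at a pair can count for both partners. The lists are read against the 19.8 points. The unadjusted intervals of 8 lists include 19.8 points, so these lists are not distinguished from all coding genes. Those of histone genes and cytosolic ribosomal protein genes lie below it. Among CpG island genes the difference was 15.6 points (interval 13.6 to 17.6). The interval of cytosolic ribosomal protein genes includes that value, so their separation depends on the genes compared. In 3 of the 8 lists the interval also lies above 0. Zinc finger genes named Zfp had a site in 13 of 31 cases in pairs (41.9%) and 55 of 360 outside (15.3%), a difference of 26.7 points (interval 10.6 to 44.3). Among them were Zfp654 with Cggbp1 (527 bp) and Zfp276 with Vps9d1 (514 bp). Solute carriers, which move small molecules across membranes, had a site in 8 of 28 cases in pairs and 22 of 341 outside, a difference of 22.1 points (interval 8.44 to 40.7). An example is Slc10a7 with Rbmxl1 (430 bp, chr8:78508524-78508953). Cell cycle and replication genes had a site in 9 of 24 cases in pairs and 13 of 79 outside, a difference of 21.04 points (interval 2.05 to 41.9). They included the mitotic kinase gene Aurka with Cstf1 (614 bp) and Cdc27 of the anaphase-promoting complex with Myl4 (617 bp).

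For replication-dependent histone genes the difference had the other sign. None of the 27 histone genes in divergent pairs had a site, which allows a share of up to 11.1% by the limit of 3 counts and of 12.5% by the Wilson interval, against 11 of 38 outside pairs (28.9%), a difference of -28.9 points (interval -44.8 to -11.7). The 27 genes form 14 pairs, 13 of them of 2 histone genes, with spacings from 156 to 660 bp (median 259.5 bp). Partners share a promoter, so the limits and the interval above, which count genes, are narrower than they would be over the 14 pairs. All 27 had a CpG island, as did 37 of the 38 outside. The nearest ASH2L site to any TSS of the 27 was 3184.5 bp away. The 11 genes with a site included Hist1h3a, Hist1h4a, Hist1h4b and Hist2h2aa1. Histone genes include near-identical copies, and the study's methods state that unusable reads were removed by Encode recommendations without naming the treatment of reads that map to several places, so the count for these genes is uncertain.

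Cytosolic ribosomal protein genes had a site in 11 of 16 cases in pairs and 49 of 69 outside (68.8 and 71.01%). The interval of the difference, from -28.4 to 18.4 points, includes 0 and ends below the 19.8 points of all coding genes. It includes the 15.6 points of CpG island genes, and the high share outside pairs limits how large the difference could be. Wide sites were at Rps27a with Clhc1 (634 bp), Rps27 with Rab13 (618 bp) and Rps18 with Vps52 (579 bp). In the remaining 5 lists the interval includes both 0 and 19.8 points. Mitochondrial ribosomal protein genes had a site in 15 of 29 cases in pairs and 17 of 49 outside, among them Mrpl13 with Mtbp (573 bp). For proteasome subunits and assembly factors the counts were 6 of 12 and 10 of 37, and for aminoacyl-tRNA synthetases, such as Wars with Wdr25 (497 bp), 5 of 10 and 8 of 28. Chaperones and chaperonins had 10 of 24 and 17 of 39, with Bag5 and Apopt1 (618 bp) beside Hspd1 and Hspe1. Of the DNA repair genes, 46 of 111 (41.4%) were in divergent pairs, against 10.99% of all coding genes, and the share was similar for histone genes (41.5%), chaperones (38.1%) and mitochondrial ribosomal protein genes (37.2%). Zfp genes (7.93%) and solute carriers (7.59%) were below the share of all coding genes. Of the 46 DNA repair genes in pairs, 15 had a site, and outside pairs 12 of 65 had one, a difference of 14.1 points (interval -2.01 to 30.4). The widest sites in this list were at Gen1 with Smc6 (610 bp), the helicase gene Recql with Golt1b (497 bp), Topbp1 with 1300017J02Rik (434 bp) and Wrn, mutated in Werner syndrome, with Purg (393 bp).

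Pairs with a site were found on 20 chromosomes, with unequal shares. On chromosome 1, 33 of 74 pairs had a site (44.6%, interval 33.8 to 55.9%), and on chromosome 13, 25 of 57 (43.9%, interval 31.8 to 56.7%). On chromosome 7 it was 13 of 110 (11.8%, interval 7.04 to 19.2%), 19.1 points below the 30.9% of all other pairs (interval of the difference -24.6 to -11.3). On chromosome 17 it was 14 of 79 (17.7%), a difference from the other pairs of -12.3 points (interval -19.7 to -2.10). On the X chromosome 1 of 31 pairs had a site (3.23%). These chromosomes were singled out after their values were seen. Coding genes outside pairs had a site in 6.13% of cases on chromosome 7, 10.3% on chromosome 17 and 2.36% on the X chromosome, against 13.7% on chromosome 1 and 15.0% on chromosome 13. Chromosome 14 had 34.7% of its pairs with a site but 8.57% of its other genes.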

How the data were processed

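The authors precipitated ASH2L from iMEFs and sequenced 8 libraries, in 4 groups of 2 replicates. According to the study's methods, precipitation used HA-selective antibodies, while the labels name the antibody after Ash2l. Reads were trimmed with Trim Galore, aligned to mm10 with BWA and filtered with SAMtools, replicates were merged with Picard and narrow peaks were called with MACS. The deposited list used here holds peak positions only, the union over all samples, with no count, score or depth. The study also names a list of sites that changed after 1 h, not analysed here. Whether the union joined peaks of single or merged libraries is not given in the sources used here.

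Starts were read as counted from 0, since the smallest width is then 200 bp, and are printed counted from 1. Sites on other sequences than the 21 assembled nuclear chromosomes (16 sites) were not used. TSSs came from GENCODE mouse release 21 and sequence from the RefSeq copy of GRCm38.p6. CpG islands were computed as stretches of at least 200 bp with GC content over 50% and a CpG ratio over 0.6. Shares have Wilson and differences Newcombe 95% intervals, medians have order-statistic intervals, and the 7 side tests were two-sided exact binomial tests with Benjamini-Hochberg adjustment and a threshold of 0.05. Where a count was 0, a share of up to 3 counts was allowed.

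The members, gene lists, motifs and tests were chosen with earlier results of these data known. Named items were 20 textbook pairs (of which Cct4-Fam161a was not divergent within the limit), the 5 widest member sites, the 3 pairs with the most sites, the 3 smallest and 3 largest spacings and up to 4 genes per list with the widest sites, from which examples are printed. Some named items are not reported here. The window was varied in the alternatives, as were the spacing limit, the TSS set, the widths, the merging of sites, the island length and the motif window. Functions were tested on simulated data. Python 3.11.15 was used with NumPy 2.4.6, pandas 2.3.3, SciPy 1.17.1, statsmodels 0.14.6, pysam 0.24.0 and matplotlib 3.10.9.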

Additional observations from a re-analysis of the deposited data

How the results depend on the processing

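The share of pairs with a site was 29.2%. It moved to 22.7% with a window of 500 bp and to 26.6% when sites at the minimum width were left out. It stayed within its counting interval in the other 5 alternatives, from 28.7 to 30.4%. The share of member sites centred between the TSSs was 13.1%. It moved to 17.2% with the 500 bp window, to 17.3% with basic protein-coding transcripts and to 17.8% when sites within 1 kb were merged. The share overlapping a CpG island was 99.7% with the 500 bp window and 95.4% with islands of at least 500 bp. Merging sites also moved the median width to 327 bp. With gene starts only, there were 237 member sites in place of 388. The same number of side tests, 3 of 7, passed in all 8 alternatives run for them. Restricting them to sites that cover no TSS of the pair and are not centred between the TSSs was added after the data were seen. There the CpG-richer side held 76.8% of 142 sites, and the plus-strand share, which did not pass the test in either setting, turned to 49.7%. With motif windows of 100 bp the ETS difference was 10.1 points, and ETS was again the 1 motif with an interval above 0.

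No paired analysis was possible because the list has no column per sample. For the same reason no replicate was left out, no stricter peak threshold was tried, the depth behind a site is unknown, and ASH2L below the level called by the authors is not seen at pairs without a site.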
